A study of Mus musculus with 2 samples.

Results

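B cells and the plasma cells that arise from them are the antibody lineage, and 9 of its genes were examined here in RNA from colonic regulatory T cells (Treg cells), the CD4 T cells whose identity rests on the factor Foxp3. The genes were chosen by name from the 55246 loci of the deposited table. They comprise 5 B cell genes (Cd79a, Cd79b, Ms4a1, Pax5 and Cr2) and 4 plasma cell genes (Mzb1, Sdc1, Derl3 and Pou2af1), and all 9 had a row. The data are read counts per gene from 2 libraries of total RNA, both labelled as Tregs of female mice, taken from the lamina propria of the colon, the connective tissue beneath its epithelium. The genotype was WT in 1 library and Exon2KO in the other, in which the Foxp3 allele lacks exon 2 (Foxp3∆2). Age, the sorting scheme and whether mice were pooled are not given in the sources used here. Neither genotype had a replicate, so the spread within a genotype is unknown, and every interval covers counting error alone.

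A B cell recognises antigen through membrane immunoglobulin, whose signal is passed on by the paired chains that Cd79a and Cd79b encode. The factor Pax5 holds a cell in the B cell state and is switched off when the cell becomes a plasma cell, which devotes its endoplasmic reticulum to antibody secretion. The colon lamina propria is rich in plasma cells that secrete immunoglobulin A.

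The WT library held 16281133 reads in genes and the Exon2KO library 15412425. Reads of Foxp3, the targeted gene, numbered 6991 and 20946, a whole-gene count that does not check a deletion of 1 exon. The 14 T cell identity genes summed to 9102 CPM (reads relative to library sizes scaled by TMM) in WT and 7147 in Exon2KO, and none was at 0 in either library. Cd5 was the single one of these 14 that passed the call described next, and it was lower in Exon2KO.

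Genes were tested where their reads came to 10 or more in the 2 libraries combined, 17363 in all, by an exact binomial test of their reads and the p-values were adjusted over all of them (Benjamini-Hochberg). Calls needed both an adjusted p below 0.05 and a change of 2-fold or more. Such a test speaks of the reads in these libraries and not of the genotypes. Each log2 ratio sets Exon2KO over WT after a prior count of 2 was added, and the range after it is the 95% Clopper-Pearson interval without that prior.

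Among the 5 B cell genes, Ms4a1 fell and the others were not called. Among the 4 plasma cell genes, Sdc1 rose and the others were not called. Of all tested genes, 6.81% were called lower and 7.31% higher in Exon2KO (8.14% and 9.38% by the 2-fold ratio alone). The 2 calls are thus 1 of 3 tested B cell genes and 1 of 4 tested plasma cell genes, and from so few genes nothing is read beside that background. Pax5 and Cr2 had fewer than 10 reads and were not tested. The remaining 5 genes (Cd79a, Cd79b, Mzb1, Derl3 and Pou2af1) had log2 ratios between -0.46 and -0.24, whether they belong to the B cell or to the plasma cell group. In bulk RNA, fewer cells of a type and less RNA per cell cannot be told apart.

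**Figure D1:**
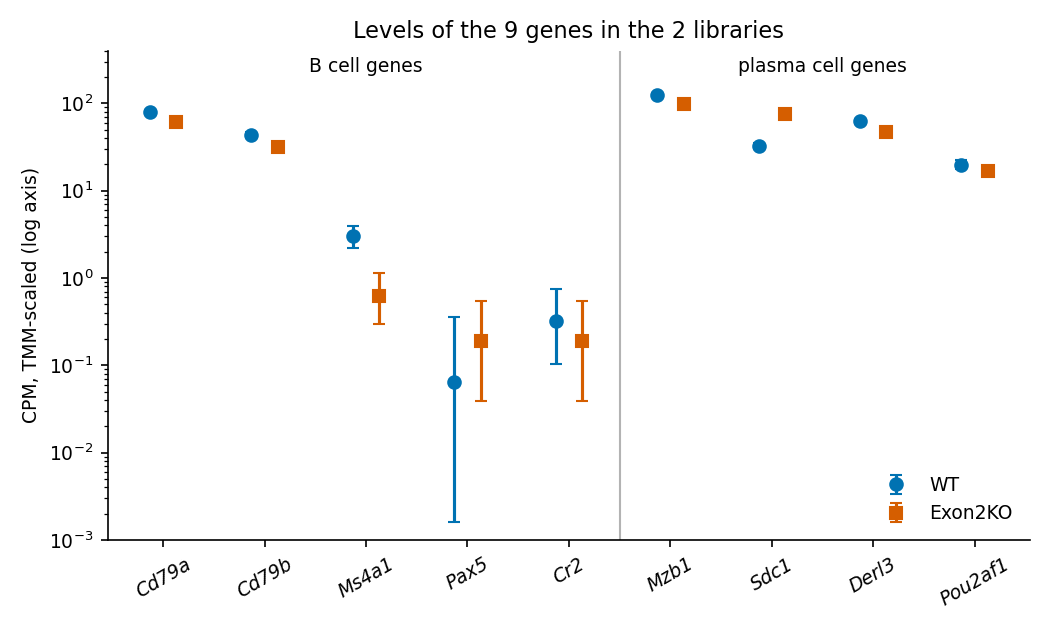
Level of each of the 9 genes in the WT library (circles) and the Exon2KO library (squares), as TMM-scaled CPM on a log axis, with exact 95% Poisson intervals of the count. The intervals of Cd79a, Cd79b, Ms4a1, Mzb1, Derl3 and Sdc1 do not overlap between the libraries, and those of Pou2af1 do. Sdc1 is the single plasma cell gene of the 4 that is higher in Exon2KO. Pax5 and Cr2 lie at 0.319 CPM or lower with wide overlapping intervals.

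Cd79a (ENSMUSG00000003379, chromosome 7, 24897381 to 24902197, plus strand, GRCm38), which encodes the immunoglobulin-associated alpha chain, had 1244 reads in WT and 990 in Exon2KO. These are 79.3 CPM (95% Poisson interval 74.9 to 83.8) and 61.9 CPM (58.1 to 65.9). The level was lower in the Exon2KO library by more than counting error, with a log2 ratio of -0.36 (-0.48 to -0.23), and stayed under the 2-fold threshold (adjusted p of the exact binomial test 4.95e-08).

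Cd79b (ENSMUSG00000040592, chromosome 11, 106311341 to 106314762, minus strand), the beta chain that pairs with Cd79a, had 685 and 508 reads. Its levels were 43.6 CPM (40.4 to 47.0) in WT and 31.8 CPM (29.1 to 34.7) in Exon2KO. The log2 ratio of -0.46 (-0.63 to -0.29) overlapped that of its partner. Cd79b had 551 reads per 1000 Cd79a reads in WT (95% Clopper-Pearson interval 501 to 605) and 513 in Exon2KO (460 to 572), so the balance of the paired chains differed by less than counting error.

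Ms4a1 (ENSMUSG00000024673, chromosome 19, 11249675 to 11266241, minus strand) encodes CD20, a surface protein of mature B cells that plasma cells lose. It had 47 reads in WT and 10 in Exon2KO, or 2.99 CPM (2.20 to 3.98) and 0.625 CPM (0.300 to 1.15). The gene fell, with a log2 ratio of -2.05 (-3.41 to -1.26) and an adjusted p of 2.37e-06 by the exact binomial test. Within each library Ms4a1 had 37.8 reads per 1000 Cd79a reads in WT (27.6 to 50.6) and 10.1 in Exon2KO (4.83 to 18.7), a ratio that needs no library scaling. In the authors' deposited table Ms4a1 has a log2 fold change of -2.25 and an adjusted p-value of 0.0157. When samples were assumed to vary by a biological coefficient of variation (BCV) of 0.4 around their mean, edgeR's exact test ended the call, at an adjusted p of 0.5995.

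Pax5 (ENSMUSG00000014030, chromosome 4, 44524757 to 44710487, minus strand), the factor that holds B cell identity, had 1 read in WT and 3 in Exon2KO. Both counts lie at or under 3 reads, the number that a count of 0 allows, so no ratio is given and these reads are too few to show a difference. Cr2 (ENSMUSG00000026616, chromosome 1, 195136811 to 195176716, minus strand), which encodes the complement receptor CD21 of mature B cells and follicular dendritic cells, had 5 and 3 reads. Its Exon2KO over WT ratio was 0.589 with a counting interval of 0.0915 to 3.03, which includes 1.

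Mzb1 (ENSMUSG00000024353, chromosome 18, 35647266 to 35649367, minus strand), a chaperone cofactor of the endoplasmic reticulum that helps assemble immunoglobulin, had 1980 reads in WT and 1579 in Exon2KO. Its levels were 126 CPM (121 to 132) and 98.8 CPM (93.9 to 104). The log2 ratio was -0.35 (-0.45 to -0.26, adjusted p of the exact binomial test 3.94e-12), lower in Exon2KO beyond counting error and not called. In the GENCODE M21 annotation a gene named SPATA24 covers Mzb1 on the same strand, so reads in shared sequence are uncertain.

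Derl3 (ENSMUSG00000009092, chromosome 10, 75893413 to 75895941, plus strand) encodes a protein that helps remove misfolded proteins from the endoplasmic reticulum. It had 978 and 748 reads, which are 62.3 CPM (58.5 to 66.3) in WT and 46.8 CPM (43.5 to 50.3) in Exon2KO. The log2 ratio of -0.41 (-0.55 to -0.27) was again below 0 and short of 2-fold. Derl3 had 494 reads per 1000 Mzb1 reads in WT (457 to 534) and 474 in Exon2KO (434 to 517), and these intervals overlap.

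Pou2af1 (ENSMUSG00000032053, chromosome 9, 51213708 to 51240080, plus strand) encodes a coactivator that works with octamer-binding factors and is used by both B cells and plasma cells. It had 312 reads in WT and 268 in Exon2KO, or 19.9 CPM (17.7 to 22.2) and 16.8 CPM (14.8 to 18.9). The intervals of the levels overlap. The log2 ratio was -0.24 (-0.49 to -0.01), with an adjusted p of 0.0892 by the exact binomial test.

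Sdc1 (ENSMUSG00000020592, chromosome 12, 8771323 to 8793715, plus strand) encodes syndecan-1 or CD138, a heparan sulfate proteoglycan used to mark plasma cells that epithelial cells also make. It had 510 reads in WT and 1213 in Exon2KO, or 32.5 CPM (29.7 to 35.4) and 75.9 CPM (71.7 to 80.3). Sdc1 rose, with a log2 ratio of 1.22 (1.07 to 1.38) and an adjusted p of 1.38e-61 by the exact binomial test. It had 258 reads per 1000 Mzb1 reads in WT (233 to 284) and 768 in Exon2KO (712 to 828), so it parted from the other plasma cell genes within each library. In the authors' deposited table the log2 fold change of Sdc1 is 1.22 and its adjusted p-value 0.0738. Allowing for a spread between samples ended the call: the adjusted p of edgeR's exact test was 0.0571 at an assumed BCV of 0.2 and 1 at 0.4.

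Most markers of colon epithelium moved with Sdc1. Of 16 such markers, 13 were called higher and 0 lower, beside 7.31% and 6.81% of all tested genes. Their summed level was 99.97 CPM in WT and 507 CPM in Exon2KO, and Cdx2 was at 0 reads in WT. Epcam, the epithelial adhesion molecule, with 782 and 609 reads, and the mucin gene Muc2, with 41 and 21, went the other way without reaching 2-fold, at -0.39 and -0.93 (adjusted p of the exact binomial test 4.14e-06 and 0.0278). Pigr, the epithelial receptor that carries immunoglobulin A into the gut lumen, had 32 reads in WT against 474 in Exon2KO and rose by 3.78 on the log2 scale (3.34 to 4.43). The part of these markers in the Sdc1 result was not tested.

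**Figure D2:**
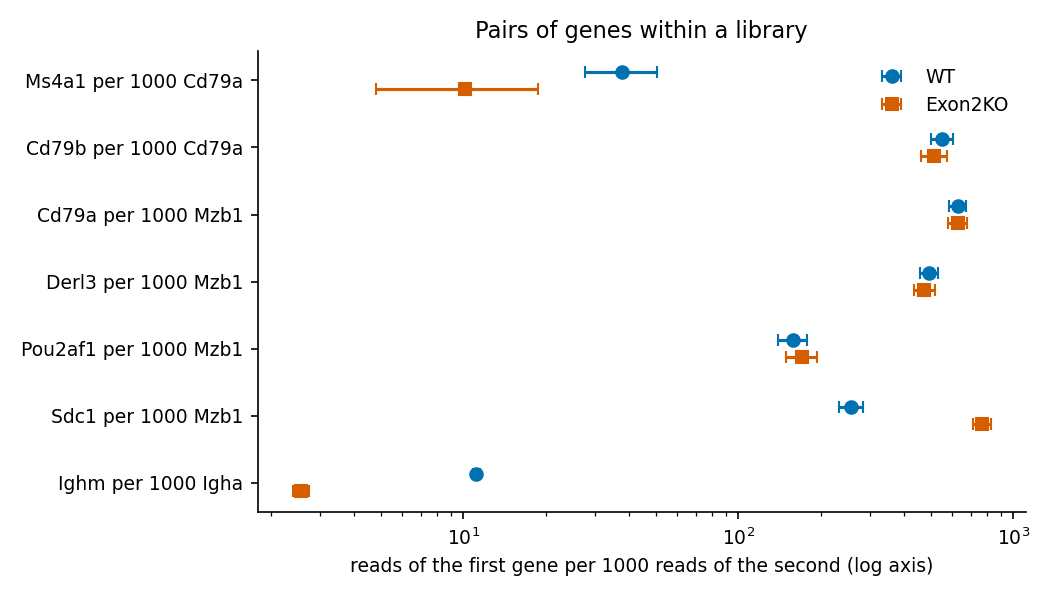
Reads of 1 gene per 1000 reads of another gene in the same library (log axis), for WT (circles) and Exon2KO (squares), with 95% Clopper-Pearson intervals. Cd79b to Cd79a, and Cd79a, Derl3 and Pou2af1 to Mzb1, have overlapping intervals in the 2 libraries, while Ms4a1 to Cd79a and Ighm to Igha are lower and Sdc1 to Mzb1 is higher in Exon2KO.

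The 95% intervals of Cd79a, Cd79b, Mzb1, Derl3 and Pou2af1 all include the log2 ratios from -0.45 to -0.29. Cd79a had 628 reads per 1000 Mzb1 reads in WT (585 to 675) and 627 in Exon2KO (579 to 679). For scale, 10.6% of all tested genes had a log2 ratio within the range these 5 genes span, and 49.7% had one below 0. Over tested genes with at least as many reads as Pou2af1 these shares were 13.4% and 54.4%. The median log2 ratio of the T cell identity genes, -0.28, lay within the same range, and 11 of these 14 were below 0. The median log2 ratio was -0.46 for the 3 tested B cell genes and -0.30 for the 4 plasma cell genes, beside 0.0035 for all tested genes. Summed over each group, reads of the 5 B cell genes gave a log2 ratio of -0.41 (-0.51 to -0.32), a value set mostly by Cd79a and Cd79b. The sum of the 4 plasma cell genes was at -0.02 (-0.08 to 0.05), and without Sdc1 at -0.36 (-0.44 to -0.29).

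**Figure D3:**
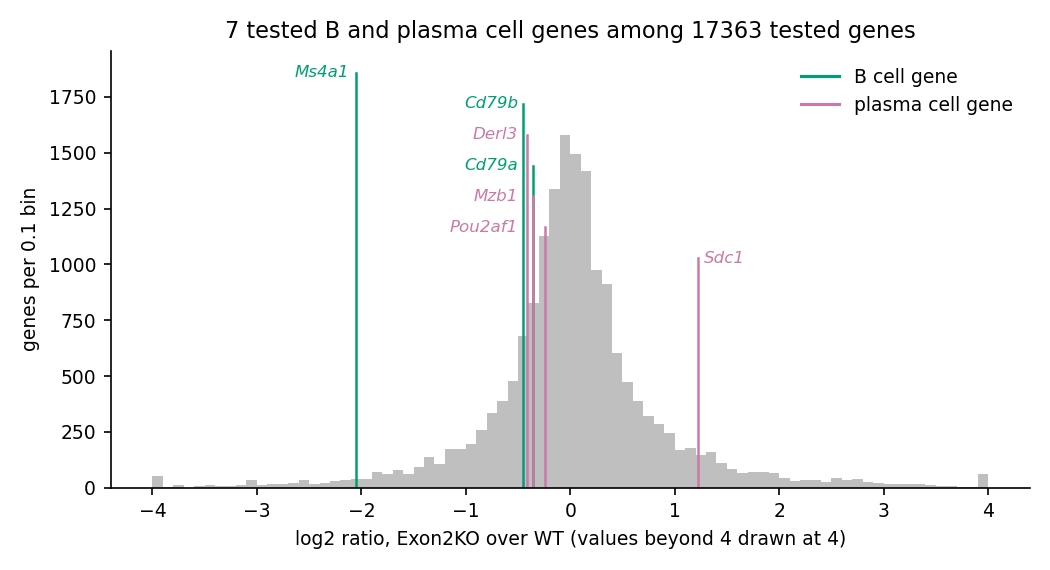
Histogram of the log2 ratio (Exon2KO over WT, bins of 0.1) over all 17363 tested genes, with lines at the 3 tested B cell genes (green) and the 4 plasma cell genes (pink). Line height carries no value. Cd79a, Cd79b, Mzb1, Derl3 and Pou2af1 stand side by side on the left shoulder of the main peak, with Ms4a1 in the left tail and Sdc1 in the right.

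Promoter sequences are shown for Cd79a, Derl3 and Pou2af1, which had like ratios, and for Sdc1, which went the other way. RefSeq windows of 300 bases (250 before to 50 after the start site, GRCm38.p6) matched 6 of the 9 genes by symbol. Only bases ahead of every annotated start are printed, 5′ to 3′. Capitals mark 4 motifs searched on both strands: TGCAAAT, the core of the octamer, CCAAT, the CCAAT box, ACGTG, the core of a site class used by stress factors such as Xbp1, and CCCNNGGG, the core that early B cell factors bind.
Cd79a (chr7:24897247-24897380, plus strand): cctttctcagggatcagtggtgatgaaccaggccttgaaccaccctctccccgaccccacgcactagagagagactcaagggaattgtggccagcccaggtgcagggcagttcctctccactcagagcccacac
Pou2af1 (chr9:51213440-51213689, plus strand): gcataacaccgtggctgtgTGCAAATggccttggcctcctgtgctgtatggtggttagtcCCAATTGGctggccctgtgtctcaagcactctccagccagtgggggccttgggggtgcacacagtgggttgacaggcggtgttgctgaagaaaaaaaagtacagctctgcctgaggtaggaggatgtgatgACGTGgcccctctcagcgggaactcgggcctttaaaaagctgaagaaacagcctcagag
Derl3 (chr10:75893148-75893397, plus strand): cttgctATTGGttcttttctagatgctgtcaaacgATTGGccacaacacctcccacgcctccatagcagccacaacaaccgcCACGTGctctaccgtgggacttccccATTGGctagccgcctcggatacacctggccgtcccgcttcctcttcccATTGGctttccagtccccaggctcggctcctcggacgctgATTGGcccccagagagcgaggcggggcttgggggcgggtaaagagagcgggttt
Sdc1 (chr12:8771146-8771322, plus strand): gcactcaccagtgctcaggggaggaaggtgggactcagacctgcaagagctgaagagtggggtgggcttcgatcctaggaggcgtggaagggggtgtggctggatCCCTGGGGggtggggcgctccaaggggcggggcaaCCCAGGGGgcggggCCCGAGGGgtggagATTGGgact
The Derl3 window held CCAAT 5 times and ACGTG 2 times, on opposite strands of 1 palindrome. In the Pou2af1 window there was 1 octamer core, 1 ACGTG and 2 CCAAT matches that share bases. The Sdc1 window held CCCNNGGG 3 times and CCAAT once. None of these motifs was found in the Cd79a window. For comparison, TGCAAAT was in 4.02% of the 32851 windows of the same length, CCAAT in 37.4%, ACGTG in 19.6% and CCCNNGGG in 13.7%. The full octamer ATGCAAAT, which contains the core, was in 1.74% of windows and in none of these 4.

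Levels can be compared between genes only per length, for which the deposited FPKM (reads relative to the length of the gene and the size of the library) were used. In WT, Mzb1 was highest at 139 FPKM (133 to 145), at rank 394 among protein-coding genes, followed by Cd79a at 54.1 FPKM (51.2 to 57.2). The next were Derl3 at 31.1 FPKM (29.2 to 33.1) and Cd79b at 30.4 FPKM (28.1 to 32.7), which did not differ beyond counting error. Sdc1 at 8.49 FPKM (7.77 to 9.26) and Pou2af1 at 7.76 FPKM (6.92 to 8.67) also overlapped. Far below lay Ms4a1 at 0.482 FPKM, Cr2 at 0.0391 and Pax5 at 0.00716, the last pair with overlapping intervals. Mzb1 thus stood at 2.56 times the level of Cd79a in WT, and at 2.57 times in Exon2KO.

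In Exon2KO the order was the same, with Mzb1 at 110 FPKM (104 to 115) and Cd79a at 42.7 (40.1 to 45.5). Sdc1, at 20.02 FPKM (18.9 to 21.2), had moved up beside Cd79b at 22.3 (20.4 to 24.3) and Derl3 at 23.6 (21.9 to 25.3). Of these 3, neighbours in the order had overlapping intervals. Pou2af1 was at 6.61 FPKM (5.84 to 7.45), Ms4a1 at 0.102, Cr2 at 0.0232 and Pax5 at 0.0213. Among protein-coding genes ordered by FPKM, Cd79a stood at rank 980 in WT and 1164 in Exon2KO.

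Other genes of mature B cells were read from lists of related genes. Calls in this and the following lists stand beside the 6.81% of all tested genes called lower and the 7.31% called higher. The lists were chosen with earlier results known, so their counts are descriptive. In the list of B cell receptor complex and signalling genes, 5 of 17 tested genes fell and 1 rose, with a median log2 ratio of -0.50. The inhibitory receptor gene Cd22 went from 19 to 6 reads, at -1.41 (-3.30 to -0.31), and the Fc receptor-like gene Fcrl1 from 156 to 65, at -1.26 (-1.73 to -0.86). Lyn, a kinase gene also active in myeloid cells, went from 1863 to 505 reads (-1.91, -2.05 to -1.77). Another that fell was Siglecg, an inhibitory receptor gene with 38 and 1 reads, named after its values were seen. Not all genes of the list were called: Bank1, with 41 and 29 reads, was at -0.50 (-1.26 to 0.19) and Fcrla at -0.32 (-0.88 to 0.22), both named after their values were seen. Both intervals span no change as well as the log2 ratios of Cd79a and Cd79b, so neither a fall nor its absence is shown. Blk, a kinase gene of B cells that gamma-delta T cells making IL-17 also express, rose from 44 to 160 reads, at 1.79 (1.35 to 2.35). With an assumed BCV of 0.2 in edgeR's exact test the calls of Cd22 and Fcrl1 were lost.

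Of 15 B cell surface receptor genes, 5 fell and 1 rose, with a median of -0.25. Tnfrsf13c, the receptor for the survival factor BAFF on mature B cells, fell from 114 to 49 reads, at -1.21 (-1.76 to -0.75), a call lost with an assumed BCV of 0.2. Cd40, through which T cells help B cells, went from 137 to 23 reads (-2.50, -3.31 to -1.96). The other 3 that fell were Cd83 at -3.33 (-3.40 to -3.25), Cxcr5 at -2.24 (-2.77 to -1.83) and Cd1d1 at -1.68 (-1.92 to -1.46). Activated or follicular T cells also express Cd83 and Cxcr5. The chemokine receptor gene Ccr6, shared by B cells and T cells of the type 17 kind, rose to 2833 reads from 1355 (1.04, 0.94 to 1.13), a call also lost with that spread. Tnfrsf13b, the receptor TACI for BAFF and APRIL, was at 0.57 (0.46 to 0.68) and not called. Fcer2a, or CD23, named after its values were seen, had 16 reads in each library.

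Among 13 B cell transcription factor genes, 2 rose and 1 fell, with a median of -0.23. Ebf1, which acts with Pax5 to set B cell identity, had 48 and 25 reads, a log2 ratio of -0.91 (-1.73 to -0.24) that was not called. The genes that rose were Ikzf3, an Ikaros family member also used by T cells, at 1.08 (1.02 to 1.13), and Zfp318, a factor for immunoglobulin D expression, at 1.44 (0.83 to 2.25), and both calls were lost with an assumed BCV of 0.2. The gene that fell was Hhex, with 19 and 7 reads, named because it was the single one. Germinal centre genes showed 1 fall (Gcsam, 14 and 0 reads) among 7 tested. Of 8 genes of B cell progenitors 3 were tested and 0 called by the exact binomial test, with 1 unadjusted p below 0.05, and Rag1, Rag2, Dntt, Igll1 and Vpreb2 had 0 reads in both.

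Plasma cell factors were not called in either direction by the exact binomial test with the 2-fold threshold, with a median of 0.06 over 6 genes, of which 5 had an unadjusted p below 0.05. Prdm1, which encodes Blimp-1 and is also used by effector Treg cells, had 628 and 1052 reads, at 0.72 (0.57 to 0.86). Irf4, likewise shared with Treg cells, had 773 and 1432 reads, at 0.86 (0.74 to 0.99). Xbp1, the factor that expands the secretory apparatus, was at 0.16 (0.12 to 0.20). Over the list, 3 of the 6 log2 ratios lay above 0 and 3 below it, among the latter Ell2 at -0.39 (-0.47 to -0.32), named after its values were seen.

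In the list of plasma cell surface and survival genes 0 of 11 tested genes passed the 2-fold call, although 8 had an adjusted binomial p below 0.05, and the median was -0.21. Tnfrsf17, the receptor BCMA on which plasma cell survival depends, had 232 reads in WT and 192 in Exon2KO, at -0.30 (-0.58 to -0.02). Over 31 genes of antibody secretion 1 rose, the epithelial receptor gene Pigr given above, and 0 fell, with a median of 0.05. Jchain, which joins immunoglobulin A into dimers, had 120089 and 113723 reads, at -0.11 (-0.12 to -0.09), or 0.0005 when scaled by total counts. Most of these secretory genes serve every secreting cell.

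Immunoglobulin constant genes showed 5 falls and 0 rises among 12 (6.81% and 7.31% over all tested genes), with a median of -0.65. Ighm, whose product mature B cells carry on the surface, fell to 857 from 4561 reads (-2.44, -2.55 to -2.33), and Ighd, which marks naive B cells, from 65 to 26 (-1.28, -2.06 to -0.67), the latter a call lost with an assumed BCV of 0.2. Ighg2b was at -1.69 (-1.84 to -1.55) and Ighg2c at -1.35 (-1.51 to -1.20), and Ighe, the last of the 5, had 9 and 1 reads. The most abundant constant genes were not called: Igha was at -0.32 (-0.32 to -0.31) and Igkc at -0.19 (-0.19 to -0.18). There were 11.2 Ighm reads per 1000 Igha reads in WT (10.8 to 11.5) and 2.56 in Exon2KO (2.40 to 2.74). These whole-gene counts, that of Ighm included, do not separate membrane from secreted immunoglobulin. Constant genes of a class share sequence, and how their reads were split is uncertain.

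**Figure D4:**
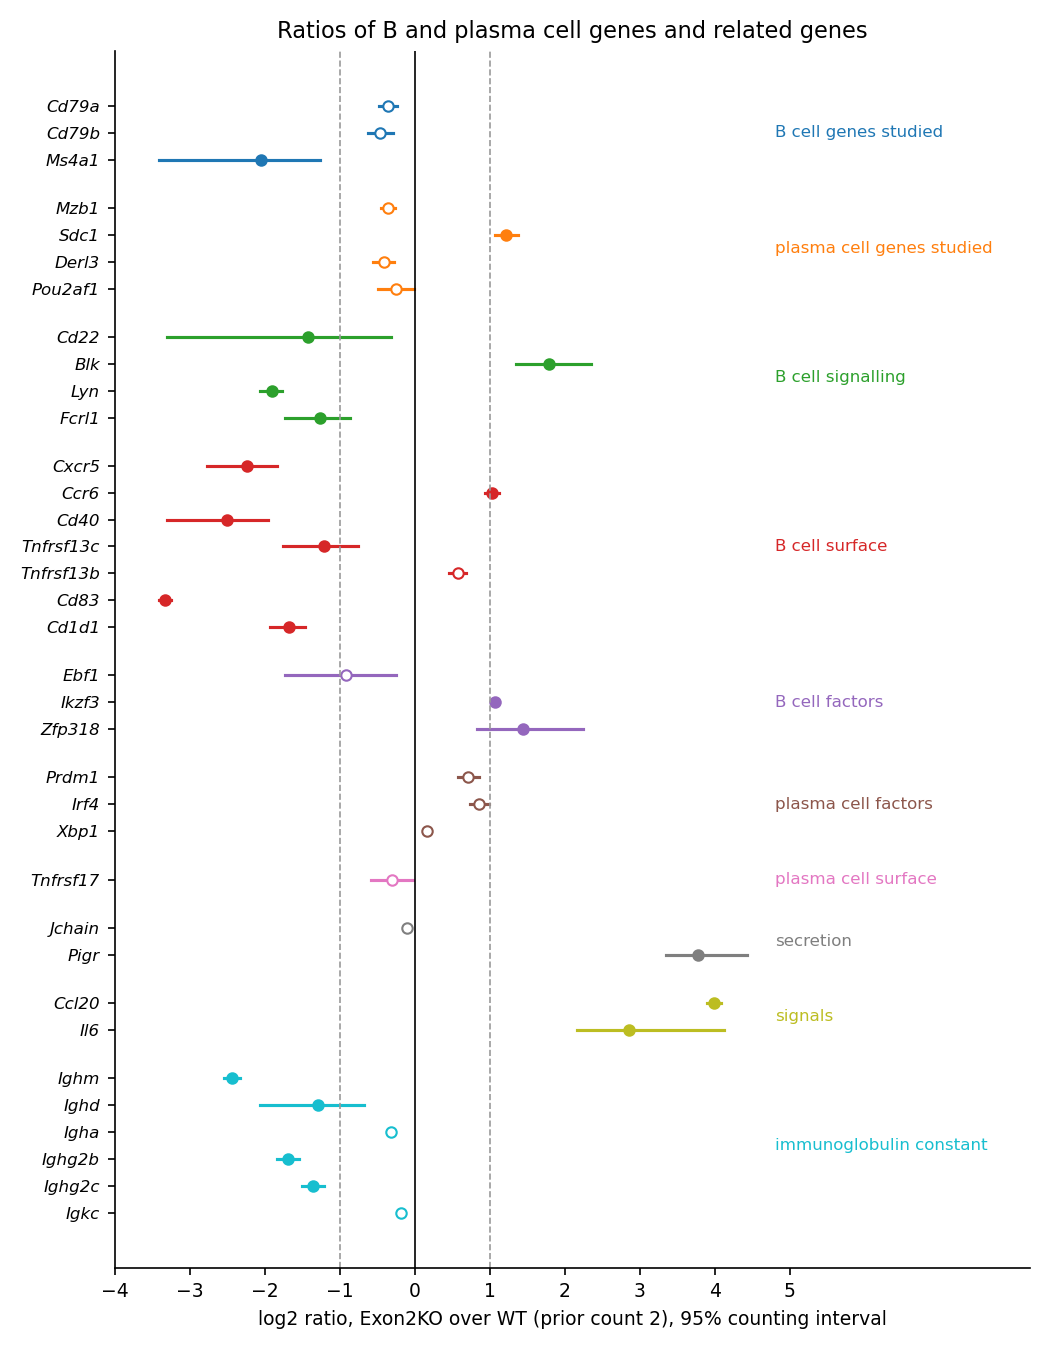
Log2 ratio of Exon2KO over WT for the 7 tested B and plasma cell genes and for related genes, grouped by role. Lines are 95% Clopper-Pearson intervals without the prior count, filled circles passed the 2-fold call and open circles did not, and dashed lines mark 2-fold. Cd22, Lyn, Fcrl1, Cxcr5, Cd40, Tnfrsf13c, Cd83, Cd1d1, Ighm, Ighd, Ighg2b and Ighg2c lie past the left dashed line with Ms4a1. Between that line and 0 lie the B cell genes Cd79a, Cd79b and Ebf1, and also Mzb1, Derl3, Pou2af1, Tnfrsf17, Jchain, Igha and Igkc (Jchain at 0.00 under scaling by total counts). Past the right dashed line with Sdc1 lie Blk, Ccr6, Ikzf3, Zfp318, Pigr, Ccl20 and Il6. Tnfrsf13b, Prdm1, Irf4 and Xbp1 lie between 0 and the right line.

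Among 8 tested genes for survival and attraction signals to B cells, 4 rose and 0 fell (7.31% and 6.81% over all tested genes). Ccl20, the ligand of Ccr6, went from 1031 to 16679 reads, at 3.99 (3.90 to 4.08), and Il6 from 11 to 94, at 2.86 (2.16 to 4.12). Ccl28, an epithelial chemokine for immunoglobulin A plasma cells, had 0 and 24 reads, and Il21 had 2 and 13. Tnfsf13b, which encodes BAFF, had 7 and 8 reads, and Tnfsf13, which encodes APRIL, 0 and 7.

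Other cells that can share these genes were read from their own lists. Myeloid genes, of which 9 of 15 were tested, had 0 calls by the exact binomial test (1 unadjusted p below 0.05), a summed level of 50.3 CPM in WT and 53.4 CPM in Exon2KO, and Itgax at 0 reads in both. Plasmacytoid dendritic cell genes, with 7 of 8 tested, had 0 calls by the same test (3 unadjusted p below 0.05) and summed to 265 and 234 CPM. Of 6 tested follicular dendritic cell genes 1 rose, Clu, which many cells make, while Cxcl13 had 6 and 2 reads and the list summed to 84.9 and 108 CPM. The part of these cells in the results above was not tested.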

How the data were processed

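RNA from 1 WT and 1 Exon2KO sample was sequenced. Per gene, the authors deposited raw counts of reads, FPKM, a scaled count signal (not used here), and a log2 fold change with p-values. HISAT2 2.0.5, StringTie 1.3.3b, featureCounts 1.5.0-p3, DESeq2 1.16.1 and the build mm10 (GRCm38) are named in the submitters' processing notes, with no role or order. The use of strand and the annotation release are not given in the sources used here.

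The deposited counts were scaled with TMM in edgeR 4.0.16 (R 4.3.3), with a factor of 0.964 for the WT library and 1.04 for Exon2KO. Without replicates the quasi-likelihood test of edgeR cannot be fitted. An exact 2-sided binomial test was used instead, on all genes with at least 10 reads. It was run on simulated counts without spread between samples, which cannot show how it fares where samples vary. Python 3.11.15, scipy 1.17.1 and statsmodels 0.14.6 were used. Intervals and the limit of 3 reads for a count of 0 (1.84e-05% of WT reads and 1.95e-05% of Exon2KO reads) cover counting error only. Reads lacking molecular identifiers may be copies of 1 molecule, so even counting error may be larger than the intervals show. Alternatives covered scaling, read minimum, prior count, fold threshold and assumed BCV.

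The 9 genes and the gene lists were chosen with earlier results of these data known. All 9 are named, with every called gene of the related lists that had at least 50 reads in 1 library and a set of genes fixed by name, not all of which are reported here. Other named genes were chosen after their values were seen. With 2 libraries a pattern is 1 ratio, so no gene is named for likeness of pattern.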

Additional observations from a re-analysis of the deposited data

How the results depend on the processing

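The ratios of the 7 tested B and plasma cell genes were recomputed under 4 other scalings and a prior count of 0.5, and 0 changed direction. The assumed spreads and the 1.5-fold threshold bear on calls and leave the ratio as it is. Over all these settings 3 calls were lost: Ms4a1 with an assumed BCV of 0.4, and Sdc1 with 0.2 and with 0.4. The number of called B cell genes was then 0 with a BCV of 0.4, and that of plasma cell genes 0 with either BCV. Scaling by total counts raised the median over all tested genes by 0.10 (log2), and Pou2af1 then stood at -0.14. Of 28 named related genes, Jchain alone changed sign, under total counts, and the 4 other scalings cost none of the 19 calls. An assumed BCV of 0.2 cost 7 of them (Cd22, Fcrl1, Ccr6, Tnfrsf13c, Ikzf3, Zfp318 and Ighd), and 0.4 cost 16, leaving Cd83, Pigr and Ccl20. After the data were seen, the plasma cell median was also taken without Sdc1, at -0.35.

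Over all tested genes, 1270 were called higher (51.8% of calls) and 1183 lower. Scaling by total counts gave 1536 and 1017, or 60.2% higher. A minimum of 50 reads gave 649 higher and 685 lower, as it tested 12730 genes. An assumed BCV of 0.2 gave 579 and 536, and 0.4 gave 86 and 78. The 1.5-fold threshold gave 1870 and 1891. Depth limits Pax5 and Cr2, with fewer than 10 reads each. No paired analysis was possible because each genotype has 1 library, which also allows no library to be left out.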
